A study of Mus musculus with 6 samples.

Results

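Wnt signalling in Plk2 null mammary epithelial cells was described through 50 genes of the pathway, all of which had a probe on the array, among 20145 genes with a symbol. They were listed by name: 13 Wnt ligands, 12 Frizzled and Lrp receptors, 7 R-spondins and Lgr receptors, 7 secreted antagonists, 4 TCF/LEF transcription factors and 7 feedback genes. The 3 Plk2 null samples (Plk2 -/-) were set against 3 wild-type samples. All 6 were primary mammary epithelial cells dissociated from the glands of female 129sv/C57Bl6 mice aged 8 weeks, each hybridised to its own 1-colour array. The labels name neither the deleted part of Plk2, nor a sort of the dissociated cells, nor whether each sample came from a single mouse, so p-values measure the spread between these samples, which may in part be technical.

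Wnt ligands are secreted lipid-modified proteins that bind a Frizzled receptor and an Lrp5 or Lrp6 co-receptor. In the canonical branch this stabilises beta-catenin, which acts with TCF/LEF factors on target genes, several of which are inhibitors that feed back on the pathway. R-spondins, bound by Lgr receptors, raise the amount of Frizzled at the surface by removing the ubiquitin ligases Rnf43 and Znrf3. In the mammary gland, Wnt signalling is known for its part in placode formation, ductal side-branching under progesterone and the upkeep of basal stem cells.

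The transcription factor gene Lef1, the R-spondin gene Rspo1 and the secreted inhibitor gene Wif1 had the largest differences between the genotypes among the listed genes that could be tested. Their promoter windows are shown for that reason, as given by RefSeq on GRCm38.p6, 250 bases before to 50 after the transcript start, 5′ to 3′ on the strand of the gene. The table held windows for 32 of the 50 genes. Lef1 had 4 windows, of which the first (chr3:131110047-131110346, plus strand) and the last (chr3:131156044-131156343, plus strand) are printed. Rspo1 lies at chr4:124986180-124986479 and Wif1 at chr10:121033754-121034053, both on the plus strand. Capitals mark the TCF/LEF core CTTTGA or its reverse complement.
Lef1, upstream start: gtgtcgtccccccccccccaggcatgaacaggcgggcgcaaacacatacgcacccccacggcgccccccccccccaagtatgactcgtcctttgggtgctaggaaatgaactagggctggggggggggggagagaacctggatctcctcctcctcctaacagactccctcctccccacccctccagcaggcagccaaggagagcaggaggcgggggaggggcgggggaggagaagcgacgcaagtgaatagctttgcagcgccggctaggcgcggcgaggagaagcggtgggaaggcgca
Lef1, downstream start: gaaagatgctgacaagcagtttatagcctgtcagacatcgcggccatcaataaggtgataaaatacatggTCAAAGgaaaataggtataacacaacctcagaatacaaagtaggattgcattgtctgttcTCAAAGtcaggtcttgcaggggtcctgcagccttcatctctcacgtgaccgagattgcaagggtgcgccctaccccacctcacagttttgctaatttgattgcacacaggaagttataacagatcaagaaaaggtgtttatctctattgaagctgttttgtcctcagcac
Rspo1: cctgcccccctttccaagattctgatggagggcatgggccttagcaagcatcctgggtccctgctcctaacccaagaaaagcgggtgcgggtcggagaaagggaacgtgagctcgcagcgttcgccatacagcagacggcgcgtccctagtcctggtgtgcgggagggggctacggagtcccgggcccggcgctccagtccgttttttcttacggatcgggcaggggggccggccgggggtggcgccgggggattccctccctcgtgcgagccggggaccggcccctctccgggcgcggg
Wif1: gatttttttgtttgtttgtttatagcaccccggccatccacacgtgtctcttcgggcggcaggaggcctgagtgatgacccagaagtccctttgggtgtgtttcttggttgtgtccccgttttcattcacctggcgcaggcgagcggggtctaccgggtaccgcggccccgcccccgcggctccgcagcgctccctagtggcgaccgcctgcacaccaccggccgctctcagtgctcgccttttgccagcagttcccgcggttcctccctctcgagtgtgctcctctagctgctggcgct
The core was found at 180 and 120 bases before the downstream Lef1 start and in no other of these windows. It was present on either strand in 4 of the 41 windows of the listed genes (Lef1, Fzd1, Wnt5b and Wnt11; 9.76%) and in 16% of all 32851 windows. The longer CTTTGAT, which contains that core, was found in 2 of the 41 (Wnt5b and Wnt11; 4.88%), against 3.73% of all windows. These matches describe the letters in each window and not sites used in these cells.

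Levels are the log2 processed signal of a probe minus the 75th percentile of that signal on the same array, so 0 is the brightness of the 75th percentile, and levels of different probes are not compared. A probe entered the test when 3 or more arrays showed it well above background, which held for 44 of the 50 genes, tested among 24609 entries in all. Of these, 43 were well above background on all 6 arrays. Lef1 was so on 2 of the 3 null arrays and all 3 wild-type arrays, which alone would have kept it. Plk2 itself had log2 levels of -6.97, -7.20 and -7.00 on the null arrays, where it was never well above background, against 2.18, 2.22 and 2.38 on the wild-type arrays. It was at least 149.8-fold lower in null samples. It entered the test only through the wild-type samples, so its p is not given. Of the epithelial markers, 12 of 12 basal, 13 of 13 hormone-sensing luminal and 9 of 12 luminal progenitor genes met the same criterion. Between 52.8% and 56.2% of gene spots were well above background on the null arrays and between 51.8% and 53.8% on the wild-type arrays (exact permutation test, two-sided p = 0.2, the smallest possible being 0.1). Null arrays were all in slide row 2 and wild-type arrays all in slide row 1, and genotype therefore cannot be told apart from slide row. Null sample 3 stood apart from the other null samples for several of the genes below, and the counts over all 44 genes, by role and over the further pathway genes are therefore also given without it.

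Lef1 was lower on every null array than on any wild-type array, and Rspo1 and Wif1 were higher on every null array, by 4.77-fold and 4.38-fold on average. The Lef1 means differed 22.2-fold, a size that depends on the dim null arrays, 1 of them not well above background, and was 5.78-fold in the authors' deposited table. Several ligands and secreted Frizzled-related genes were lower by smaller amounts. None of the 44 genes passed the threshold over all entries (limma, adjusted p under 0.05), where 139 of 24609 entries did, or 0.565% (0.228% higher and 0.337% lower in null samples). At an unadjusted p under 0.05, 16 of the 44 were found, 36.4% against 23% of all entries. Of these, 6 were higher in null samples (Rspo1, Wif1, Lgr6, Fzd3, Fzd6 and Fzd7), where the share of all entries is 13.5%, and 10 were lower (Lef1, Wnt2, Wnt9a, Wnt4, Wnt7b, Fzd10, Fzd1, Sfrp1, Sfrp2 and Sfrp5), where it is 9.54%. Without null sample 3, 9 were higher and 13 lower. With spike-in scaling 9 were higher and 4 lower, 13 in all, against 28.0% of all entries under that scaling. In whole-sample RNA, fewer cells of a type and less RNA per cell cannot be told apart.

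The arrays of the genotypes did not overlap for 16 of the 44 genes, 36.4% against 31.6% of all entries. Of these, 7 were higher in null samples (19.6% of all entries) and 9 lower (12% of all entries). At an adjusted p under 0.1, a threshold added after the data were seen, Lef1, Wnt2, Fzd10 and Wnt9a were lower and Rspo1 and Wif1 higher. These 6 are 13.6% of the 44, against 6.66% of all entries, or 3.62% higher and 3.04% lower. Without null sample 3, 4 genes passed an adjusted p of 0.05 (Lef1, Wnt4 and Wnt9a, lower, and Znrf3, higher), with 2.86% of all entries. In that fit 13 genes had an adjusted p under 0.1, against 10.3% of all entries, 22 had an unadjusted p under 0.05, against 25.2%, and 29 had no overlap, against 46.6%. Leaving out any other single array left 0 at an adjusted p under 0.05. At an adjusted p under 0.1 there was 1 gene without wild-type sample 3, and 0 without null sample 1, null sample 2, wild-type sample 1 or wild-type sample 2. At an unadjusted p under 0.05 there were 10 genes without null sample 2, against 16.8% of all entries, and 10 without wild-type sample 1, against 16.4%.

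By role, leaving out null sample 3 gave 2 ligands with a higher and 8 with a lower mean, and 6 receptors with a higher and 6 with a lower one. It gave 3 higher and 2 lower R-spondin and Lgr genes, 1 higher and 6 lower antagonists, 3 higher TCF/LEF genes with Lef1 lower, and 4 higher and 2 lower feedback genes. Without null sample 2 instead, 3 ligands had a higher and 7 a lower mean, and 7 receptors a higher and 5 a lower one. R-spondin and Lgr genes were then 4 higher and 1 lower, and antagonists 2 higher and 5 lower. TCF/LEF genes were 1 higher and 3 lower, and feedback genes 4 higher and 2 lower.

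**Figure D1:**
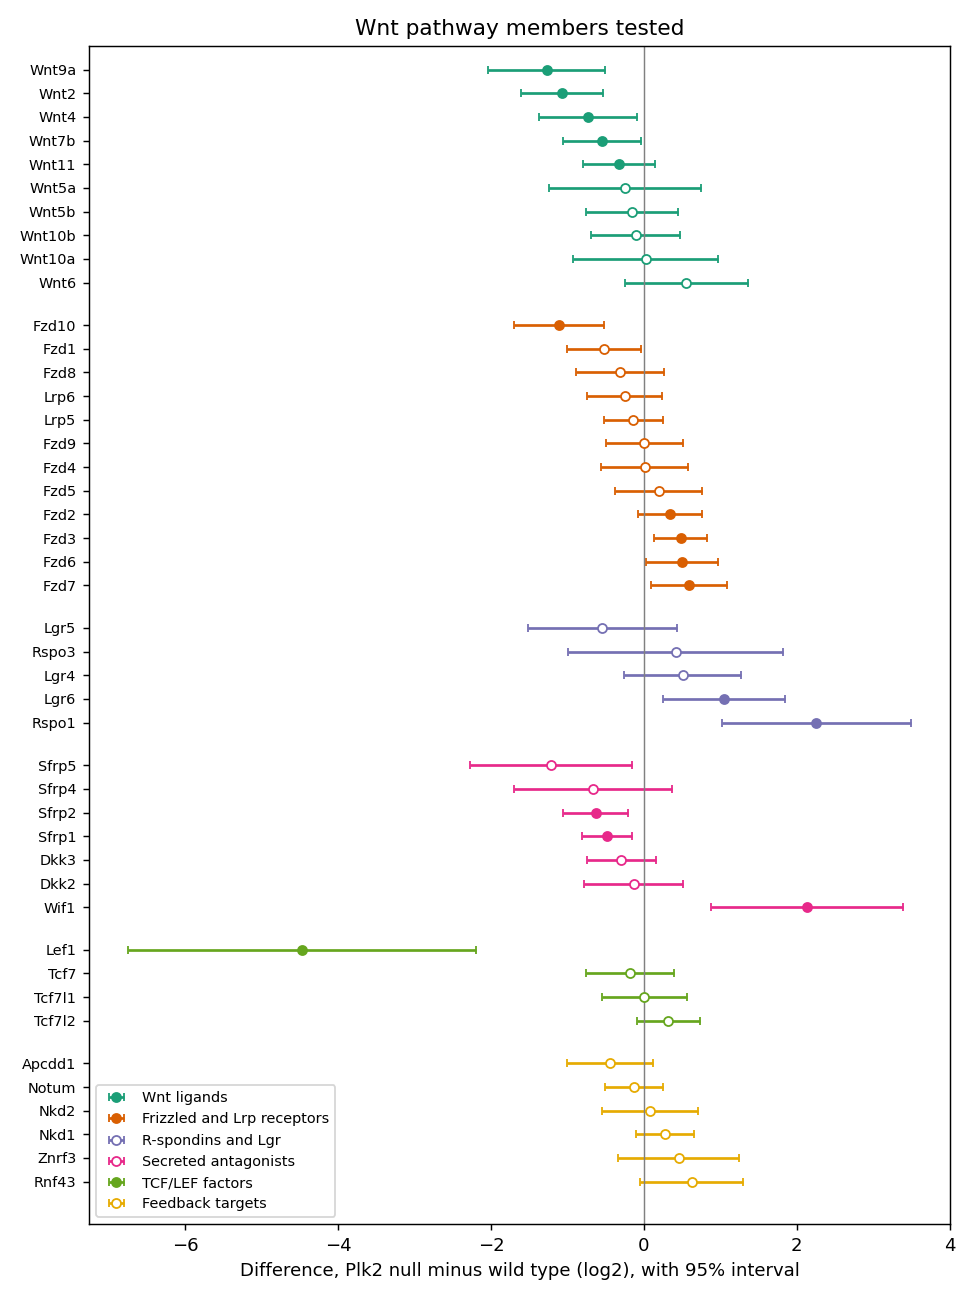
Difference in log2 level, Plk2 null minus wild type, for the 44 tested genes by role, with 95% intervals from limma; filled points mark genes whose 3 null and 3 wild-type arrays did not overlap. Lef1 lies far to the left at -4.47, Rspo1 and Wif1 to the right at 2.25 and 2.13, and most other genes lie within 1 unit of 0.

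Of the 10 tested Wnt ligands, 8 had a lower mean in null samples and 2 a higher one, with a median difference of -0.29, against 0.03 over all entries. Wnt2, a ligand made by mammary stroma in mice, had log2 levels of -3.93, -4.06 and -3.93 on the null arrays, against -2.51, -2.87 and -3.32 on the wild-type arrays. Each null array was thus below each wild-type array, and the difference was -1.07 (SE 0.22, limma adjusted p = 0.0778). Its probe was dim, with processed signals of 15.7 to 20.1 in null and 28.2 to 45.2 in wild-type samples, and the difference was -0.37 with the other background correction and -0.34 with the values of the authors' deposited table. Wnt9a, a ligand known from joint development, had levels of -1.47, -2.18 and -0.91 on the null arrays, against -0.34, -0.07 and -0.35 on the wild-type arrays. The groups did not overlap, and the difference was -1.27 (SE 0.32, adjusted p = 0.097). It was -0.78 with the other background correction and -0.79 with the deposited values.

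Wnt4, which acts downstream of progesterone in ductal side-branching, had levels of -0.25, 0.02 and 0.74 on the null arrays, against 1.001, 0.75 and 0.97 on the wild-type arrays. Null sample 3 lay just under the lowest wild-type array, and the other null samples were clearly lower. The difference was -0.74 (SE 0.27, limma adjusted p = 0.175), and -0.45 with spike-in scaling. Without null sample 3 it was -1.02 (adjusted p = 0.0442). Wnt7b, a luminal ligand in the mouse gland, had levels of -0.45, -0.61 and -0.02 on the null arrays, against -0.01, 0.46 and 0.11 on the wild-type arrays. The groups met almost edge to edge, with a difference of -0.55 (SE 0.21, adjusted p = 0.196). It was -0.34 with the other background correction and with the deposited values, and -0.26 with spike-in scaling.

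Wnt11, which signals mainly without beta-catenin, had no overlap between genotypes but a difference of only -0.32 (SE 0.20, limma adjusted p = 0.37). Wnt5b gave levels of 4.44, 4.43 and 4.29 on the null arrays, against 4.07, 4.52 and 5.03 on the wild-type arrays. The null values fell inside the wild-type range, with a difference of -0.15 and a 95% interval of -0.75 to 0.45. Wnt5a, which restrains branching in the mouse gland, had 2.04, 1.36 and 3.02 on the null arrays, against 2.63, 2.45 and 2.08 on the wild-type arrays. Null samples 1 and 2 lay below and null sample 3 above all wild-type samples, with a mean difference of -0.25. The differences were -0.11 for Wnt10b and 0.02 for Wnt10a, both ligands of early mammary development, and 0.56 for Wnt6, whose groups overlapped. Spike-in scaling shifts all differences by the same amount, which moved the median of all entries to 0.32 and split the ligands into 5 higher and 5 lower. Relative to the median of all entries, the ligand median was -0.32, a value which that shift cannot change. With no filter on dim probes that relative value was -0.045, with 7 of 13 ligands below the median of all entries.

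**Figure D2:**
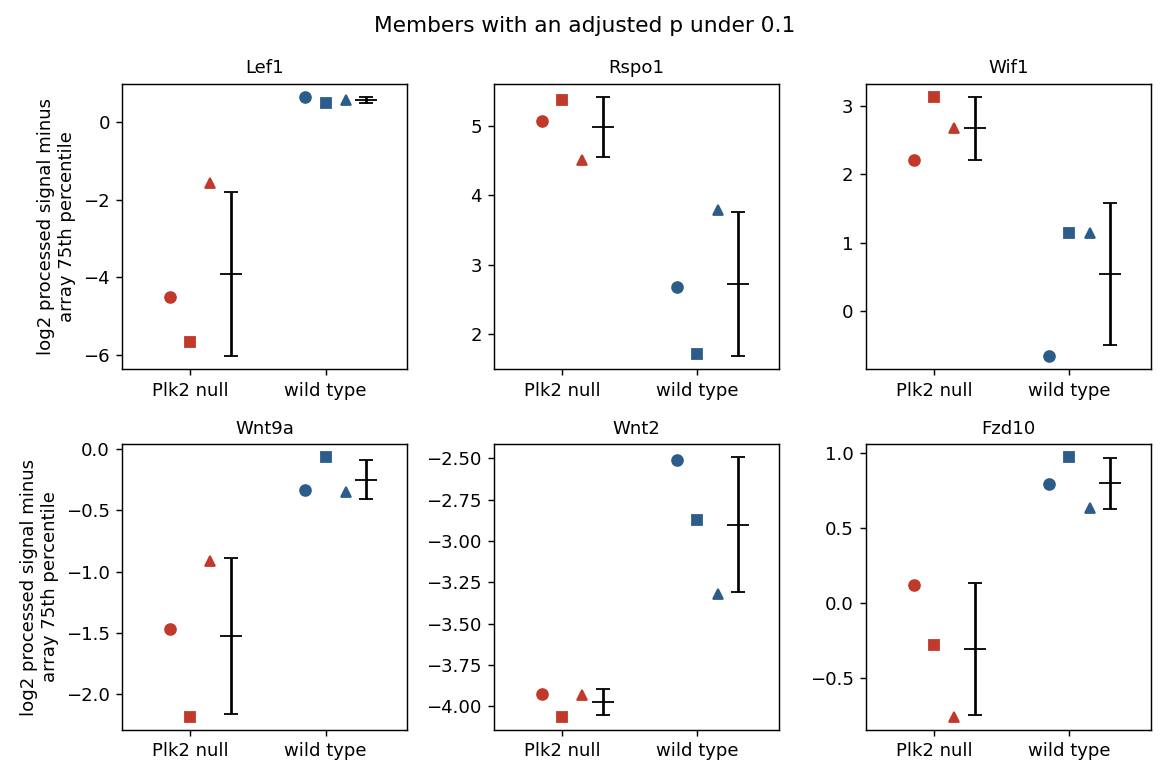
Log2 level relative to the 75th percentile of each array for the 6 genes with an adjusted p under 0.1; circles, squares and triangles are samples 1, 2 and 3 of each genotype, and bars are the mean ± SD of 3 samples. Lef1, Wnt9a, Wnt2 and Fzd10 lie lower and Rspo1 and Wif1 higher on every null array than on any wild-type array.

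The 12 receptor genes were all tested, and 7 had a higher and 5 a lower mean in null samples. Fzd10, a receptor of the Frizzled family, had levels of 0.12, -0.28 and -0.76 on the null arrays, against 0.80, 0.97 and 0.63 on the wild-type arrays. The groups did not overlap, and the difference was -1.11 (SE 0.25, limma adjusted p = 0.0849). Fzd7, a receptor of mammary basal stem cells, had -0.36, -0.20 and -0.71 on the null arrays, against -1.30, -0.97 and -0.77 on the wild-type arrays. It was higher on each null array, with a difference of 0.59 (SE 0.21, adjusted p = 0.164), and its other probe, well above background on 3 null arrays and 1 wild-type array, gave 0.79. Fzd6, a receptor best known from planar polarity, differed by 0.50 (SE 0.20, adjusted p = 0.199) and Fzd3, which shares that role, by 0.48 (SE 0.14, adjusted p = 0.127), both without overlap. With the other background correction Fzd6 differed by 0.32 and Fzd7 by 0.38, and with spike-in scaling Fzd3 differed by 0.77, Fzd6 by 0.78 and Fzd1 by -0.23.

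Fzd1 had levels of 1.34, 1.05 and 0.80 on the null arrays, against 1.32, 1.64 and 1.80 on the wild-type arrays. Null sample 1 overlapped the wild-type range, and the difference was -0.52 (SE 0.20, limma adjusted p = 0.196). Fzd2 was higher on each null array by a small margin, with a difference of 0.34 (SE 0.18, adjusted p = 0.293). The co-receptor gene Lrp6 had levels of 3.79, 3.57 and 3.07 on the null arrays, against 3.74, 3.72 and 3.73 on the wild-type arrays. Null sample 3 was the lowest, and the difference was -0.25, with a 95% interval of -0.75 to 0.24. Lrp5 differed by -0.14, Fzd8 by -0.32, Fzd5 by 0.19, Fzd4 by 0.01 and Fzd9 by 0.0040, all with overlapping groups. Frizzled genes thus stood on both sides of 0 in the same samples: Fzd10 was lower while Fzd3, Fzd6 and Fzd7 were higher, signs that held under quantile normalization, median centring and spike-in scaling as well.

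Rspo1, which encodes a secreted enhancer of Wnt signalling that supports mammary stem cells in culture, had levels of 5.07, 5.36 and 4.50 on the null arrays, against 2.67, 1.72 and 3.78 on the wild-type arrays. All null arrays were higher than all wild-type arrays, although the wild-type samples themselves spread widely. The mean was 4.98 ± 0.44 in null and 2.72 ± 1.03 in wild-type samples (SD, n = 3 each), a 4.77-fold difference (log2 2.25, SE 0.52, limma adjusted p = 0.0887). Processed signals ran from 5449 to 11637 in null and from 817.1 to 3889 in wild-type samples. Lgr6, an R-spondin receptor found in a subset of mammary epithelial cells, had -1.77, -0.91 and -2.18 on the null arrays, against -2.91, -2.69 and -2.40 on the wild-type arrays. The groups did not overlap, with a difference of 1.05 (SE 0.34, adjusted p = 0.142), which was 0.69 without null sample 2 and 0.57 with the other background correction.

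Lgr4, a broadly expressed R-spondin receptor gene, differed by 0.51 (SE 0.32, limma adjusted p = 0.381) and Lgr5, a marker of stem cells in several epithelia, by -0.54 (SE 0.41, adjusted p = 0.463), both with overlapping arrays. Lgr4 differed by 0.23 and Lgr5 by -0.25 without null sample 2. Rspo3, another R-spondin gene, had -4.38, -4.73 and -2.38 on the null arrays, against -4.30, -4.08 and -4.36 on the wild-type arrays. Only null sample 3 stood above the wild-type range, so the mean difference of 0.42 rests on that array and was -0.31 without it. No array showed Rspo2 or Rspo4 well above background.

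Of the 7 secreted antagonists, 6 had a lower mean in null samples and Wif1 a higher one. Wif1 binds Wnt ligands in the extracellular space. It had levels of 2.21, 3.14 and 2.68 on the null arrays, against -0.66, 1.15 and 1.14 on the wild-type arrays. Every null array was higher by over 1 unit than every wild-type array, and wild-type sample 1 was the lowest of all. The mean was 2.67 ± 0.46 in null and 0.54 ± 1.04 in wild-type samples (SD, n = 3 each), a 4.38-fold difference (log2 2.13, SE 0.52, limma adjusted p = 0.0961).

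All 4 secreted Frizzled-related genes, whose products bind Wnt ligands, had lower means in null samples. Sfrp2 had levels of 2.17, 1.70 and 2.14 on the null arrays, against 2.75, 2.59 and 2.57 on the wild-type arrays. The difference was -0.63 (SE 0.18, limma adjusted p = 0.116), without overlap. Sfrp1 had -1.57, -1.58 and -1.41 on the null arrays, against -1.12, -0.93 and -1.06 on the wild-type arrays. These tight groups did not overlap either, and differed by -0.48 (SE 0.14, adjusted p = 0.12). Sfrp5 had 2.25, 1.34 and 3.14 on the null arrays, against 3.52, 3.14 and 3.73 on the wild-type arrays. Null sample 3 reached the wild-type range, and the difference of -1.22 (SE 0.44, adjusted p = 0.174) was -0.76 without null sample 2. Sfrp4 had 2.38, 1.83 and 3.55 on the null arrays, against 3.57, 2.96 and 3.22 on the wild-type arrays. It differed by -0.66 (SE 0.43, adjusted p = 0.4), with null sample 3 inside the wild-type range. Spike-in scaling gave -0.37 for it, and its value was -1.14 without null sample 3 and -0.29 without null sample 2. The Dickkopf family genes Dkk2, an inhibitor acting on Lrp co-receptors, and Dkk3 differed by -0.13 and -0.29, both with overlap. With spike-in scaling Sfrp1 and Sfrp2 differed by -0.19 and -0.34, and 5 of the 7 antagonists were still lower.

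**Figure D3:**
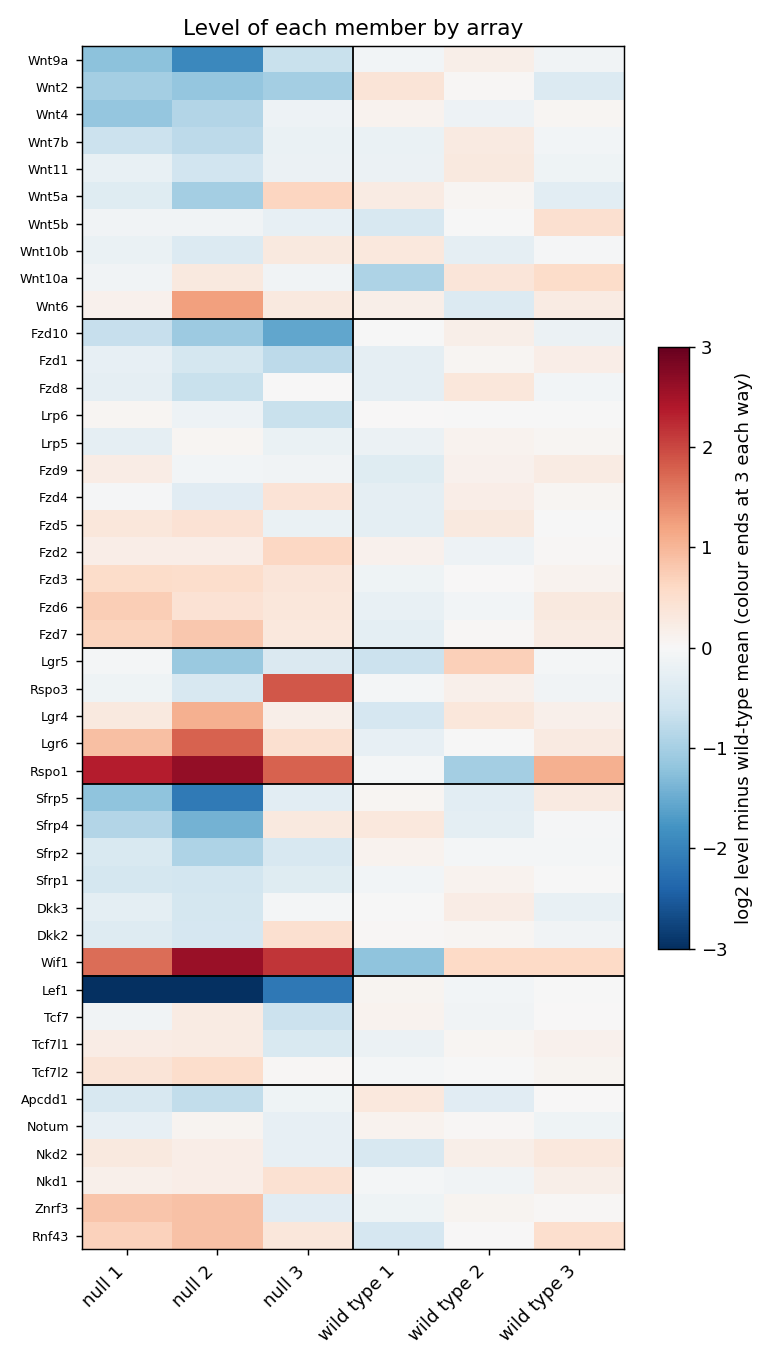
Log2 level of each of the 44 tested genes minus its mean over the 3 wild-type samples, by array, in the order of roles; blue is lower and red higher, and the colours end at 3 units each way. Lef1 is blue and Rspo1 and Wif1 are red across all null arrays, whereas Rspo3 is red in null sample 3 alone.

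Among the TCF/LEF factors, Lef1 had log2 levels of -4.49, -5.66 and -1.57 on the null arrays, against 0.64, 0.48 and 0.56 on the wild-type arrays. Every null sample was lower than every wild-type sample, null sample 3 was closest to wild type, and the wild-type samples were nearly identical. Processed signals were 13.6, 5.59 and 80.8 in null samples, against 401.6, 347.8 and 415.9 in wild-type samples. The mean was -3.91 ± 2.11 in null and 0.56 ± 0.08 in wild-type samples (SD, n = 3 each), 22.2-fold lower in null samples (log2 -4.47, SE 0.95, limma adjusted p = 0.08), with a 95% interval of -6.75 to -2.20. In the authors' deposited table Lef1 was 5.78-fold lower in null samples with an unadjusted p of 0.00315, the 1 listed gene that met both of its thresholds (p of 0.01, fold of 1.4). The difference was -2.49 with the other background correction (adjusted p = 0.0102) and -5.64 without null sample 3 (adjusted p = 0.00616).

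Tcf7, which like Lef1 is strongly expressed in T cells, had levels of -1.07, -0.71 and -1.60 on the null arrays, against -0.85, -1.06 and -0.94 on the wild-type arrays. The groups overlapped, the difference was -0.18 with a 95% interval of -0.75 to 0.40, and its other probe gave -0.20. Tcf7l2, a widely expressed family member, had 1.37, 1.51 and 1.02 on the null arrays, against 0.91, 0.97 and 1.05 on the wild-type arrays. Null samples 1 and 2 were above the wild-type range, with a difference of 0.32 (SE 0.17, limma adjusted p = 0.312). Tcf7l1, usually a repressor, differed by 0.0074, with a 95% interval of -0.55 to 0.56.

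No feedback gene separated the genotypes. None of the 6 tested had an unadjusted p under 0.05 by limma, 0 groups were free of overlap, and adjusted p-values ran from 0.241 to 0.874. Rnf43, a ligase that removes Frizzled from the surface, had 0.70, 0.89 and 0.35 on the null arrays, against -0.47, 0.02 and 0.52 on the wild-type arrays. Wild-type sample 3 overlapped null sample 3, and the difference was 0.63 (SE 0.28, adjusted p = 0.241), or 0.38 without wild-type sample 1. Its relative Znrf3 had -0.10, -0.05 and -1.26 on the null arrays, against -1.04, -0.84 and -0.89 on the wild-type arrays. Null sample 3 was the lowest of all 6, and without it the difference of 0.45 became 0.85 (adjusted p = 0.0459).

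Nkd1, an inhibitor of Dishevelled, had 0.96, 1.02 and 1.27 on the null arrays, against 0.76, 0.70 and 0.98 on the wild-type arrays. Null sample 1 overlapped wild-type sample 3, with a difference of 0.27 (SE 0.16, limma adjusted p = 0.348). It was 0.56 with spike-in scaling, 0.18 without null sample 3, and 0.99 when both of its probes were averaged, where outlier spots left fewer values of the second probe in the null samples. Nkd2 differed by 0.08, with 0.50 by its other probe. Notum, which removes the lipid from Wnt ligands, differed by -0.13 and the membrane inhibitor gene Apcdd1 by -0.45 (SE 0.24, adjusted p = 0.308). Axin2, the most used readout of canonical signalling, was below that background criterion on all 6 arrays by both of its 2 probes, so its level could not be compared. The ligand genes Wnt2b and Wnt3 were well above background on 1 null array each and Wnt16 on none. The Wnt2b signal was 118.1 in null sample 1, against 9.92 or less on the other 5 arrays.

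Markers of several other cell types were detected, and some of these lists were lower in null samples. Lymphocyte markers had 20 of 22 genes tested, and all 20 were well above background on at least 1 array of each genotype. Their summed linear level ran from 8.81 to 25.9 on the null arrays and from 62.0 to 113.5 on the wild-type arrays, and 19 of 20 had an unadjusted p under 0.05, all lower in null samples. Relative to the wild-type mean, the median marker lay at -3.09, -3.49 and -1.42 on the null arrays and Lef1 at -5.06, -6.22 and -2.13, the same order of arrays. The part of these cells in the Lef1 difference was not tested.

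Fibroblast markers, 20 of 20 tested and all well above background in both genotypes, had a summed level of 1679 to 2488 on the null arrays and 2580 to 2992 on the wild-type arrays. Their median lay at -0.53, -0.77 and -0.33 on the null arrays. Sfrp2, a gene of mammary fibroblasts, lay at -0.46, -0.93 and -0.49, and Wnt2 at -1.02, -1.16 and -1.03. The part of fibroblasts in these values was not tested. Hormone-sensing luminal markers, 13 of 13 tested, had medians of -0.75, -1.43 and -0.24 on the null arrays beside Wnt4 values of -1.16, -0.88 and -0.16. Pgr, the progesterone receptor gene in that list, fell by 1.96 (limma adjusted p = 0.043). The summed level of the list was nevertheless higher on the null arrays, 456.3 to 589.03, against 372.5 to 439.7 on the wild-type arrays. Calca, which is in that sum, differed by 4.71 (SE 1.44, limma adjusted p = 0.132). Rspo1 lay at 2.35, 2.64 and 1.78 on the same null arrays. The part of hormone-sensing cells in the Wnt4 and Rspo1 values was not tested. Basal markers, 12 of 12 tested, had medians of 0.28, 0.73 and 0.52 on the null arrays and a summed level of 1044 to 1300, against 648.6 to 976.1 on the wild-type arrays. Their medians on the wild-type arrays were -0.39, 0.27 and 0.08, so null sample 1 was level with wild-type sample 2. Fzd7 and Lgr6 were higher on the null arrays, and the part of basal cells in their values was not tested.

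Schwann cell markers, 10 of 10 tested with 8 lower means, had medians of -0.73, -1.44 and -0.21 on the null arrays. The wild-type arrays had 0.26, -0.07 and -0.17. Endothelial markers, 14 of 14 tested with 13 lower means, had -0.24, -0.79 and -0.0017 on the null arrays. The wild-type arrays had -0.36, 0.18 and 0.17, so wild-type sample 1 lay below null samples 1 and 3. Both lists were lowest in null sample 2 and nearest to wild type in null sample 3, as the hormone-sensing, fibroblast and lymphocyte lists were. Unadjusted p-values (limma) were under 0.05 for 4 lower and 1 higher (Sox10) Schwann genes and for 2 lower endothelial genes. These are 50% of the Schwann and 14.3% of the endothelial genes, against 23% of all entries. Luminal progenitor and alveolar markers, 9 of 12 tested, had medians of 0.41, 0.57 and 0.21 on the null arrays. The wild-type arrays had -0.08, 0.19 and -0.11. At an unadjusted p under 0.05, 3 genes of that list were higher and 2 lower in null samples. Elf5, a transcription factor gene of that lineage, differed by 1.71 (SE 0.29, limma adjusted p = 0.0571). Of the 2 lower genes, Aldh1a3 differed by -1.59 (SE 0.35, limma adjusted p = 0.0833). The other, Ltf, differed by -2.08 (SE 0.64, limma adjusted p = 0.134). Of 10 tested adipocyte markers, 0 had an unadjusted p under 0.05. The part of these cells in the Wnt gene values was not tested.

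**Figure D4:**
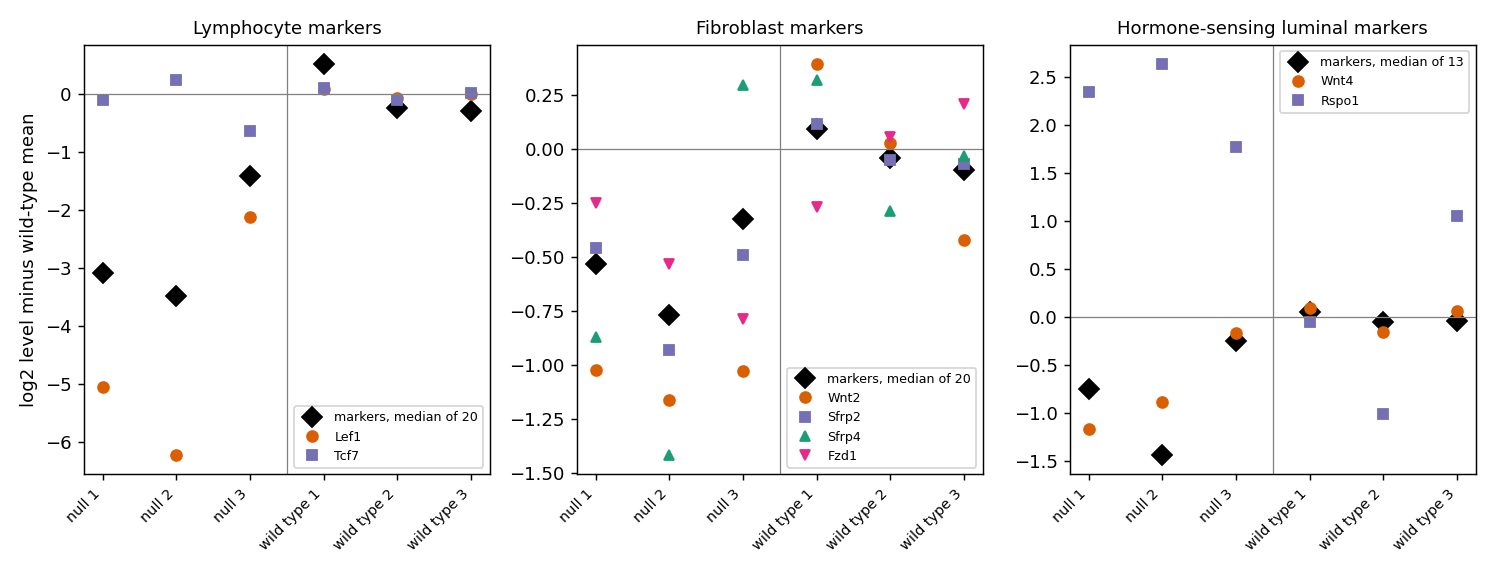
Log2 level minus the wild-type mean on each array for marker lists (black diamonds, median of the list's tested genes) and listed genes (coloured). Lef1 and the lymphocyte markers were both lowest in null sample 2 and least low in null sample 3 among null arrays, and Tcf7 stayed near 0. On the null arrays, Rspo1 lay above 0 and the median of the hormone-sensing markers below it.

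A further 62 genes of the pathway were listed by function, of which 51 were tested. None passed over all entries (limma), with 10 at an unadjusted p under 0.05 (19.6%, against 23% of all entries), 4 higher, Kremen2 among them, and 6 lower in null samples. Without null sample 3 there were 4 higher and 8 lower, and 2 passed an adjusted p of 0.05, Tnfrsf19 (1.43, adjusted p = 0.0304) and Dkkl1 (-2.25, adjusted p = 0.00621), both named after their values were seen. In that fit 239 of all entries passed that threshold higher and 465 lower. The share of all entries at an unadjusted p under 0.05 rose there as well, as given above. With all arrays kept, the smallest p of the 51 belonged to Trabd2b, which encodes a protease that cleaves Wnt ligands and differed by -0.87 (SE 0.15, adjusted p = 0.0551). The cyclin D1 gene Ccnd1, a cell cycle gene and Wnt target, differed by 1.08 (SE 0.21, adjusted p = 0.0691), in samples where 15 mitosis markers had medians of 1.65, 3.20 and 1.62 on the null arrays. The part of cell cycling in that value was not tested. Of the 8 tested Wnt target genes in this further list, Ccnd1 among them, 2 had a higher and 6 a lower mean. Their median difference was -0.27, and 2 higher and 2 lower genes had an unadjusted p under 0.05 (limma). Kremen2, a co-receptor of Dickkopf proteins, was well above background on 3 null arrays and 0 wild-type arrays, so it entered the test only through the null samples and its p is not given. Its null mean was at least 1.35-fold over the dimmest level measurable on the wild-type arrays. Frat2, which binds the kinase Gsk3, differed by 0.90 (SE 0.22, adjusted p = 0.0961). The 26 tested genes acting between the receptors and the target genes had a median difference of 0.008, and 2 had an unadjusted p under 0.05. Of the 4 tested genes of ligand processing and further ligands, 0 did.

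**Figure D5:**
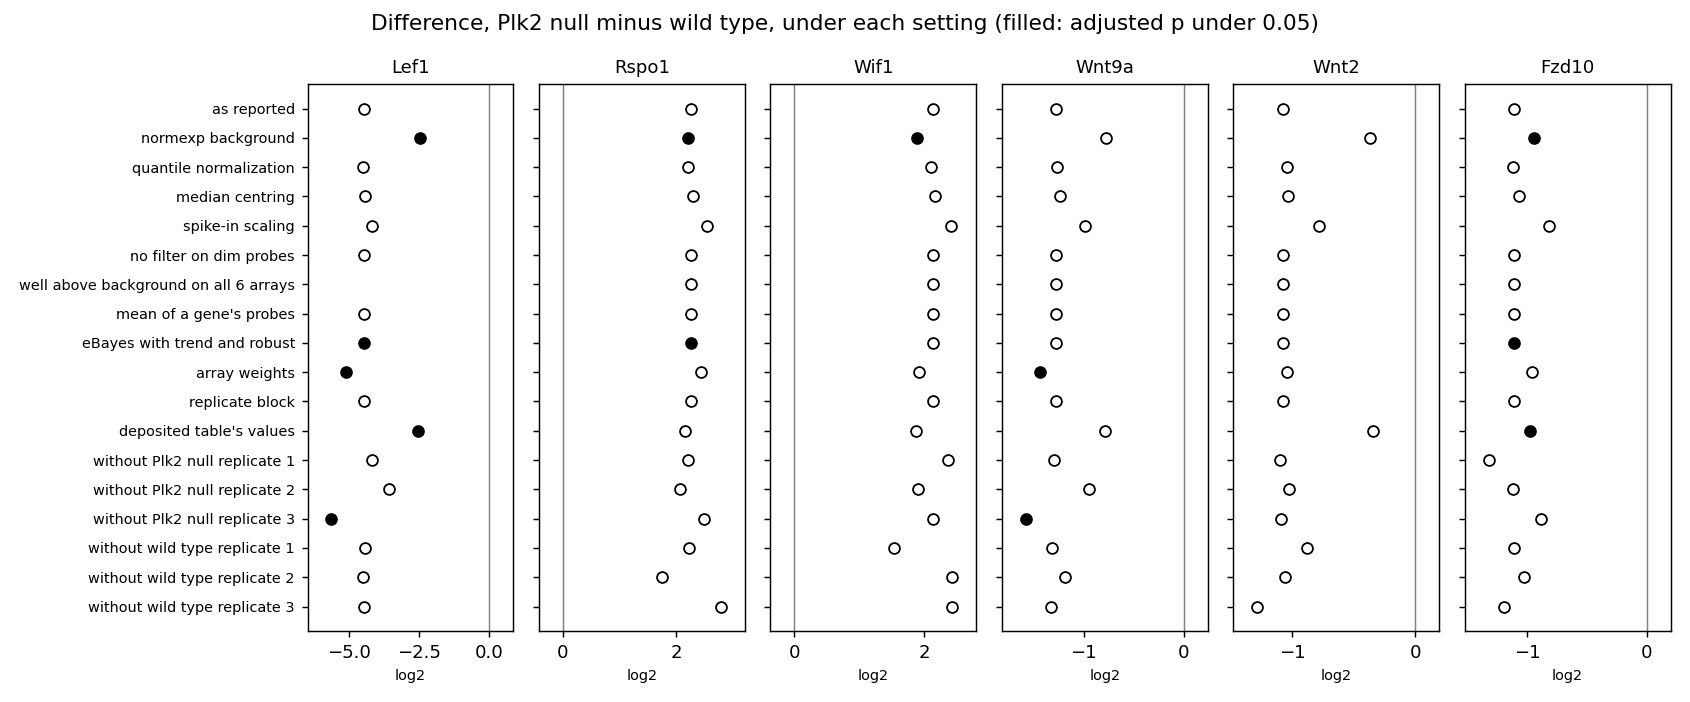
Log2 difference, Plk2 null minus wild type, of the 6 genes with an adjusted p under 0.1, as reported and under 17 other settings; filled points have an adjusted p under 0.05, and a missing point means that the gene was not tested there. Each gene kept its sign in every setting shown, while Lef1, Wnt9a and Wnt2 moved closer to 0 with the other background correction and with the deposited table's values.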

How the data were processed

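The authors deposited 1 scanner file per array; per the file headers these came from Agilent Feature Extraction 11.0.1.1 (protocol GE1_1100_Jul11, design 028005, mm9 annotation). The deposited intensity used is the processed signal, background-corrected by the scanner software and not normalized between arrays, per the file headers. Their other deposited table gives normalized intensity values, p-values, the wild-type to null ratio, and a score column with the fold and its sign, by methods not given in the sources used here.

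The log2 processed signal was centred on each array's 75th percentile. Control spots and 1119 outlier-flagged gene spots were left out, no gene spot was saturated, and spots of a probe were averaged. Probes were named by accession through a RefSeq table on GRCm38.p6 (26582 of 55681 matched). Probes were kept when 3 or more arrays showed them well above background, and the probe with the highest mean stood for its gene. Of 7 further kept probes of the listed genes, 6 had the sign of the reported one, and for the other, of Nkd1, outlier spots left no full set of values. Differences are null minus wild type by lmFit and eBayes of limma 3.58.1 (R 4.3.3), Benjamini-Hochberg adjusted over all 24609 entries, threshold 0.05. The steps were tested on simulated arrays. The number of arrays limits precision. Alternatives covered background correction (normexp, offset 50), scaling, filter, probe choice, moderation, array weights, replicate block, single arrays left out and the deposited values.

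Named with full values were genes past the threshold, genes with an unadjusted p under 0.05 or no overlap and a difference over 0.5, and the member of each role with the brightest probe. Outside that rule, array values were also given for Wnt5a, Sfrp1, Rspo3, Tcf7, Rnf43 and Znrf3. Of the further pathway genes, the 4 with the smallest p were named. The listed genes, the lists and this rule were chosen with earlier results of these data known. Samples with the same replicate number were checked for pairing: their deviations correlated at -0.12, 0.04 and -0.02, and no pairing was used.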

Additional observations from a re-analysis of the deposited data

How the results depend on the processing

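The 747 differences of the 44 tested genes under the alternatives kept their direction and side of the threshold in 693 cases, passed the threshold in 15 and turned direction in 39. All entries called numbered 139 as reported, and 1239 with normexp background, 346 with median centring, 377 with spike-in scaling, 31 with no filter on dim probes, 380 for probes well above background on all 6 arrays, 847 with trend and robust moderation, 1072 with array weights, 770 with the deposited values and 8 with the replicate block. Of the listed genes, 4 were called with normexp (Fzd10, Rspo1, Wif1, Lef1), 3 with trend and robust moderation (Fzd10, Rspo1, Lef1), 2 with array weights (Wnt9a, Lef1) and 2 with the deposited values (Fzd10, Lef1), and 0 as reported and with the replicate block. Further pathway genes called numbered 3, 2, 5 and 1 in those settings and 1 with the all-array filter. The 5 with array weights included Kremen2, which entered the test only through the null samples. At an adjusted p under 0.1, 14 listed genes passed with array weights, against 12.6% of all entries, and 0 with no filter (0.286%) or the replicate block (0.536%). Samples with equal numbers did not deviate together, so that block has no basis in the design. The median difference of the listed genes, -0.13 as reported, was -0.070 with normexp, -0.12 with quantile, -0.10 with median centring, no filter or the deposited values, and 0.15 with spike-in scaling, which moved the median of all entries from 0.03 to 0.32. With no filter the median of all entries was -0.11, and the listed genes stood 0.011 above it.

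Differences turned direction with normexp for Wnt10a (-0.079), Fzd4 (-0.041), Fzd9 (-0.048) and Tcf7l1 (-0.059), and with quantile normalization for Wnt10a (-0.012) and Fzd4 (-0.030). They did so with array weights for Wnt10a (-0.068), Fzd4 (-0.13) and Rspo3 (-0.025), and with the deposited values for Wnt10a (-0.13), Fzd4 (-0.10), Fzd9 (-0.00095) and Tcf7l1 (-0.022). With spike-in scaling they did for Wnt5a (0.041), Wnt5b (0.14), Wnt10b (0.18), Lrp5 (0.15), Lrp6 (0.035), Dkk2 (0.15), Tcf7 (0.11) and Notum (0.15). Causes were not tested.

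Leaving out single arrays gave 7 to 704 entries called and 0 to 4 listed genes called. Listed genes numbered 0 to 13 at an adjusted p under 0.1, 10 to 22 at an unadjusted p under 0.05 and 19 to 29 without overlap. The shares of all entries also changed with the array left out, as given above for some of these fits. Whether these counts rose or fell more for the listed genes than for all entries was not tested. Without single arrays the median of the listed genes ran from -0.15 to -0.090, and 0 to 2 further pathway genes were called. Differences then crossed 0 for Wnt5a (-0.69 to 0.14), Wnt5b (-0.39 to 0.091), Wnt10a (-0.44 to 0.31), Wnt10b (-0.31 to 0.047), Fzd4 (-0.19 to 0.19), Fzd9 (-0.18 to 0.13), Rspo3 (-0.31 to 0.87), Dkk2 (-0.44 to 0.048), Tcf7 (-0.38 to 0.061), Tcf7l1 (-0.12 to 0.24) and Nkd2 (-0.16 to 0.24). Probes not well above background, such as those of Axin2, gave no comparison.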

Other observations

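Null sample 2 was the null array farthest from the wild-type mean for 27 of the 44 tested Wnt pathway genes (61.4%), against 38.2% of all entries, while null sample 3 was farthest for 10 of them (22.7%), against 43.5% of all entries. Wnt5a, Sfrp4, Sfrp5, Rspo3 and Dkk2 were highest in null sample 3 among the null samples, with levels of 3.02, 3.55, 3.14, -2.38 and -1.77 there. The same genes had 1.36, 1.83, 1.34, -4.73 and -2.75 in null sample 2. Wnt6, Lgr4 and Lgr6 were highest in null sample 2, at 0.17, -1.91 and -0.91. These genes were chosen after their values were seen, and no cause was tested.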
